A study of Homo sapiens with 4 samples.

Results

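Isolated peaks are the lone entries of a list of regions in which H3K4me1 ChIP reads were called higher after LSD2 depletion than in control cells. A peak was chosen by its position: it lay on an autosome, and the gaps to the previous and to the next peak on its chromosome both exceeded 50 kb. Of 160601 distinct peaks in the list, 157150 lay on the 22 autosomes and 157106 of these had a neighbour on each side. Among these, 1217 met the rule, a share of 0.775% (95% Wilson interval 0.732 to 0.819%). The other 155889 autosomal peaks with a neighbour on each side are called the other peaks below.

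The study examined H3K4me1 in HepG2, an established human line of liver tumour cells, after siRNA against LSD2 and in siRNA-treated control cells. Both ChIP libraries came from cells grown in high-glucose medium and were made with the same antibody against H3K4me1. The knockdown library was the treatment and the control library, which the file header names for a GL3 siRNA, was the background of the call. The 4 samples, which include an input library per condition, form 4 groups of 1, and the header names neither input as part of the call. The library names in the header begin with different dates, so the condition and that date cannot be told apart. How far LSD2 was depleted was not analysed here. The depth of each library is unknown, since no read totals were at hand.

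H3K4me1 is a single methyl group on a lysine near the end of the tail of histone H3. It is found at enhancers, the DNA elements that act on promoters from a distance, and on the flanks of active promoters. In a given cell type, enhancers often lie in groups along a gene and its surroundings, and single enhancers far from any other also occur. LSD2, encoded by KDM1B, removes methyl groups from this lysine and is known to bind within the bodies of transcribed genes. A peak in this list is a place where reads of the knockdown library exceeded those of the control library, so a lone peak is one without another such call nearby. Marked regions that did not differ between the libraries are not in the list, and an isolated peak is therefore not necessarily an isolated enhancer.

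With 1 library per condition there is no replicate and no test between the conditions, and peaks of a single pair of libraries are not replicates of each other. Shares are given with 95% Wilson intervals and medians with exact 95% binomial intervals. Both take peaks as independent of each other and reflect counting error alone. The gaps chose the members and are given as a description. Widths and rows per peak were not part of the rule.

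Most isolated peaks were only just isolated. The smaller of the 2 gaps had a median of 60.3 kb, with quartiles of 54.0 and 72.2 kb, and it was at most 75 kb in 954 members, which is 78.4%. The larger gap had a median of 87.2 kb, with quartiles of 69.6 and 122 kb. Both gaps exceeded 100 kb in 103 members and 200 kb in 7. The gap lengths ran on without a break across the limit. The 3 members closest to the limit had smaller gaps of 50014, 50014 and 50016 bp, the first pair being neighbours on chromosome 21 that share that gap. The 3 closest peaks outside it had smaller gaps of 50000, 49992 and 49987 bp.

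**Figure D1:**
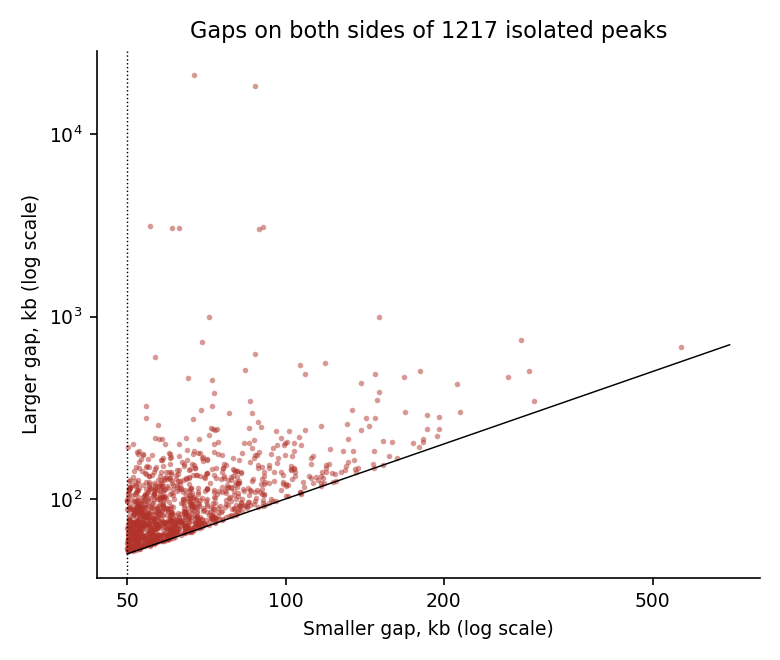
Smaller and larger gap of each of the 1217 isolated peaks, in kb on log axes; each point is a peak, the dotted line is the 50 kb limit and the solid line marks equal gaps. Most points crowd near the limit, 103 peaks have a smaller gap over 100 kb, and 7 have a larger gap over 1 Mb.

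The 5 most isolated members, by their smaller gap, lay on chromosomes 9, 14, 1, 15 and 5 of hg19, with positions counted from 1. The first, on chromosome 9 from 41241275 to 41241499, was 225 bp wide and stood 565381 bp after the previous and 681129 bp before the next peak. The next was 152 bp wide, on chromosome 14 from 98345809 to 98345960, with gaps of 297393 and 343579 bp. The remaining ones were on chromosome 1 from 13200785 to 13201149 (365 bp, smaller gap 290550 bp), chromosome 15 from 21158399 to 21158757 (359 bp, 281130 bp) and chromosome 5 from 70310398 to 70310795 (398 bp, 264820 bp). All 5 were listed in a single row, and all were narrower than 420 bp. Which genes they lie in or near was not analysed here, because no annotation of hg19 was used. Whether reads could be mapped within their gaps was not analysed either, so a gap need not lack H3K4me1.

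Isolated peaks stood in long stretches of chromosome that carried few calls, which the rule builds in. From the end of the previous peak to the start of the next, the stretches around the 1210 members without a gap over 1 Mb covered 193 Mb. That is 7.17% of the 2693 Mb between the first and last peaks of the autosomes, gaps over 1 Mb left out. Shorter stretches in which reads cannot be mapped were not set apart. These 1210 members were 0.770% of the autosomal peaks. The members themselves covered 362 kb, or 0.674% of the bases in autosomal peaks. Each chromosome was also cut into fixed windows of 1 Mb, and windows cut short at chromosome ends were kept. The window that held a member had a median of 38 peaks, the member included (quartiles 30 and 49). For the other peaks the median was 65. A lower count in the windows of members also follows in part from the gaps that chose them. Most members therefore shared their window with other peaks, and 39 of the 1217 had fewer than 10 peaks in their window.

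Members also followed each other. Of the 1217, 384 (31.6%) stood in a run of 2 or more consecutive members, which made 164 runs. The other 833 had no member as a neighbour. Consecutive members share a gap over 50 kb, so the rule itself favours runs. Whether the runs exceed what the rule gives was not tested. There were 36 runs of 3 or more and 5 runs of 5 or more. The longest had 6 members each. The first of these lay on chromosome 9 from 137435931 to 138306593, with widths from 153 to 336 bp. The other lay on chromosome 14 from 105748065 to 106590157, with widths from 158 to 272 bp. The next, with 5 members, lay on chromosome 5 from 69605014 to 70575870 and includes the most isolated peak of that chromosome, named above.

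Isolated peaks were narrower than the other peaks, and the gap between the sets was largest among wide peaks. Their median width was 287 bp (interval 278 to 298), with quartiles of 211 and 362 bp, against 317 bp (316 to 317) and quartiles of 229 and 397 bp for the other peaks. At the 10th percentile the widths were 168 and 175 bp, at the 75th 362 and 397 bp, at the 90th 409 and 525 bp, and at the 95th 456 and 650 bp. Of the isolated peaks, 87 were 420 bp or wider, 7.15% (5.83 to 8.74%), against 18.1% (17.9 to 18.3%) of the other peaks. At the narrow end, 265 were under 200 bp, 21.8% (19.5 to 24.2%), against 16.8% (16.6 to 17.0%).

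The shape of the distribution was otherwise shared. Both sets dropped sharply at 420 bp, a limit taken from an earlier description of this list: the 10 bp bin from 400 bp held 49 members, that from 410 bp 32, that from 420 bp 13 and that from 430 bp 6. The fullest 10 bp bins of the isolated peaks started at 150 bp, with 67 members, and at 160 bp, with 62. The latter was the fullest bin of the other peaks. Widths from 300 to 419 bp were the most common class in both sets, with 39.1% of the isolated (36.4 to 41.9%) and 37.1% of the other peaks. The narrowest member was 147 bp, against a fragment length of 128 bp given to MACS, the peak caller.

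**Figure D2:**
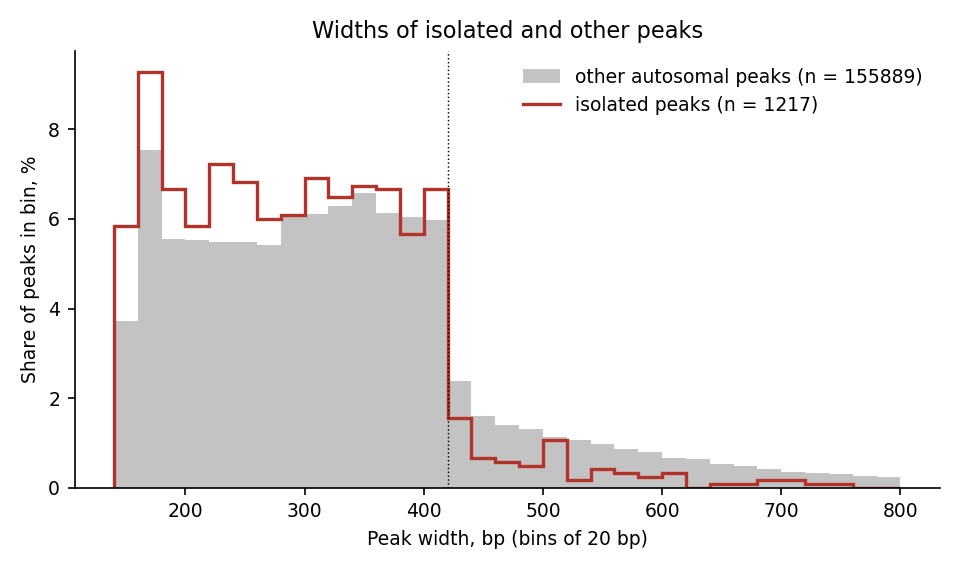
Share of peaks, in percent, by width in bins of 20 bp up to 800 bp, for the 1217 isolated peaks (red line) and the 155889 other autosomal peaks (grey); the dotted line is at 420 bp. The isolated peaks are below the other peaks past that line, where 7.15% of them lie against 18.1%.

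Few isolated peaks were broad. Only 20 were over 600 bp, and 2 were 1 kb or wider, 0.164% (0.0451 to 0.597%), against 0.923% of the other peaks. The widest, 2515 bp on chromosome 2 from 92322864 to 92325378, stood at the edge of a peak-free gap of 3.04 Mb. The next was 1003 bp, on chromosome 14 from 24561696 to 24562698, with gaps of 56576 and 60185 bp. Then followed chromosome 17 from 73522714 to 73523605 (892 bp) and 2 peaks of chromosome 9, an 881 bp peak at 91389823 to 91390703 and an 835 bp peak at 140187970 to 140188804. Apart from the first, these lay in windows with 29 to 66 peaks.

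Width changed stepwise with the distance to the nearest peak, and the isolated peaks continued a trend that began among close neighbours. The 28858 peaks within 1 kb of another had a median of 328 bp, and the median was 320 bp at 1 to 5 kb, 315 bp at 5 to 10 kb, 309 bp at 10 to 20 kb, 305 bp at 20 to 30 kb and 301 bp at 30 to 50 kb. Among isolated peaks it was 289 bp (281 to 300) for a smaller gap of 50 to 75 kb, 289.5 bp (264 to 316) for 75 to 100 kb and 252 bp (227 to 295) beyond 100 kb. The intervals of these last 3 classes overlapped, and the difference between them was not tested. The share of 420 bp or wider was 23.2% within 1 kb, 10.4% (9.55 to 11.3%) at 30 to 50 kb, and 6.92% (5.47 to 8.71%) at 50 to 75 kb. It was 9.38% (5.76 to 14.9%) at 75 to 100 kb and 5.83% (2.70 to 12.1%) beyond 100 kb. The interval at 50 to 75 kb did not overlap that at 30 to 50 kb, while those of the last 2, smaller classes did.

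Peaks that were isolated on a single side fell in between. There were 17711 with exactly 1 gap over 50 kb, and they had a median width of 304 bp (302 to 306) and a share of 12.3% (11.8 to 12.8%) at 420 bp or wider. The 138178 peaks with neither gap over 50 kb had a median of 318 bp (318 to 319) and a share of 18.9% (18.7 to 19.1%). The peaks next to a member that were not members themselves numbered 1992. Their median was 300 bp (292 to 307), and 10.6% (9.36 to 12.1%) of them were 420 bp or wider, also between the members and the rest.

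**Figure D3:**
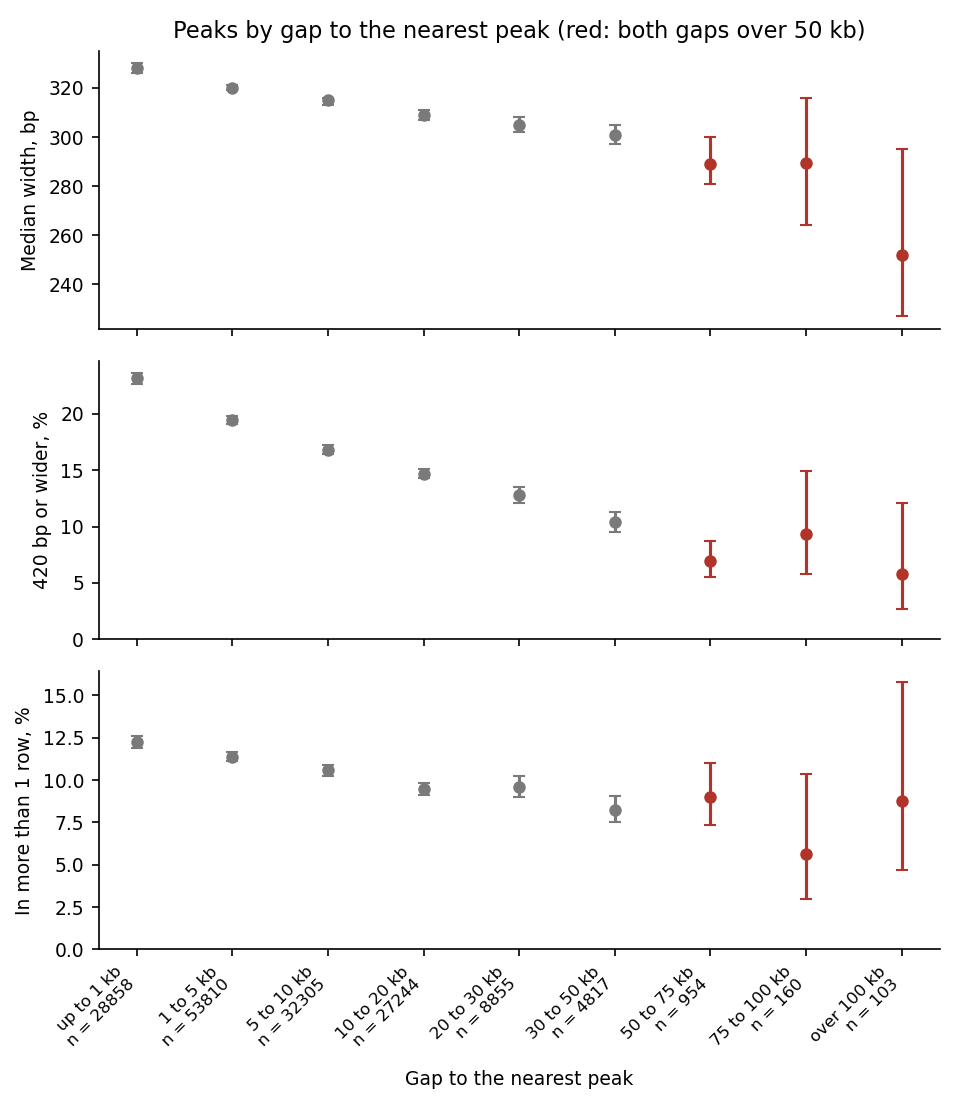
Median width in bp (top), share of peaks of 420 bp or wider (middle) and share listed in more than 1 row (bottom), in percent, by the gap to the nearest peak; red classes are the isolated peaks, bars are 95% binomial intervals, and the width axis does not start at 0. Width and the wide share are lowest in the isolated classes, while the intervals of the share in more than 1 row overlap those of the classes from 10 to 50 kb.

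Isolated peaks were also narrower than other peaks of the same surroundings, by a smaller margin. Weighted to the chromosomes of the members, the other peaks had a share of 17.3% at 420 bp or wider, close to the 18.1% without weights. Weighted to the 816 windows of 1 Mb that held both kinds, the share was 12.7%, against 7.12% of the 1208 members in those windows. The share under 200 bp was 19.1% in the other peaks of these windows and 21.7% in the members. Mean width was 318 bp in the former and 298 bp in the latter.

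The sparsest windows held the narrowest isolated peaks. In windows of 1 to 20 peaks, the 113 members had a median width of 236 bp (214 to 257), against 307 bp (294 to 322) for the 750 other peaks there. In windows of 21 to 40 peaks the medians were 291 bp (276 to 303) and 298 bp (296 to 301). In windows of 41 to 60 peaks they were 292 bp (278 to 307) and 310 bp (308 to 311), and in those of 61 or more 298 bp (274 to 341) and 325 bp (323 to 326). The intervals overlapped in the windows of 21 to 40 and of 61 or more peaks, and not in the other 2 classes. The share under 200 bp among members was 34.5% (26.4 to 43.7%) in the sparsest windows and 14.8% (9.44 to 22.4%) in the densest. Many members of the sparsest windows lay on chromosome 14. Its members past 44 Mb had by themselves a median width of 240 bp and a share under 200 bp of 35.2%. The window classes were not examined without that chromosome.

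Chromosome 14 held more isolated peaks than any other autosome, and chromosome 2 the fewest for its length. Chromosome 14 had 149 members, 12.2% of all, although it held 2.62% of the peaks. Its isolated share was 3.62% (3.09 to 4.24%), followed by chromosome 19 with 58 members and 2.43% (1.88 to 3.12%), chromosome 21 with 30 and 1.70% (1.19 to 2.42%) and chromosome 9 with 75 and 1.27% (1.01 to 1.59%). Chromosome 2 had the lowest share, 27 of 18250 peaks or 0.148% (0.102 to 0.215%). Chromosome 6 with 26 members (0.211%) and chromosome 20 with 9 (0.217%) were next. Chromosome 1 had the second highest number, 118 members, at a share of 0.937%. The copy number of the autosomes was not measured here, and a single peak list cannot tell it apart from a difference in H3K4me1.

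The isolated share ran largely opposite to the peak density, which the rule builds in. The 6 autosomes with at least 63.3 peaks per Mb, chromosomes 2, 6, 20, 10, 17 and 16, held 34.2% of the peaks and 121 members, 9.94% of all. Their isolated shares were at most 0.358%, while those of the other 16 autosomes were at least 0.602%. Density did not fix the order. Chromosome 19 had fewer peaks per Mb than chromosome 14, 42.8 against 46.7, and a lower isolated share. Per 10 Mb, chromosome 14 had 16.9 members, chromosome 19 10.4 and chromosome 2 1.13.

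**Figure D4:**
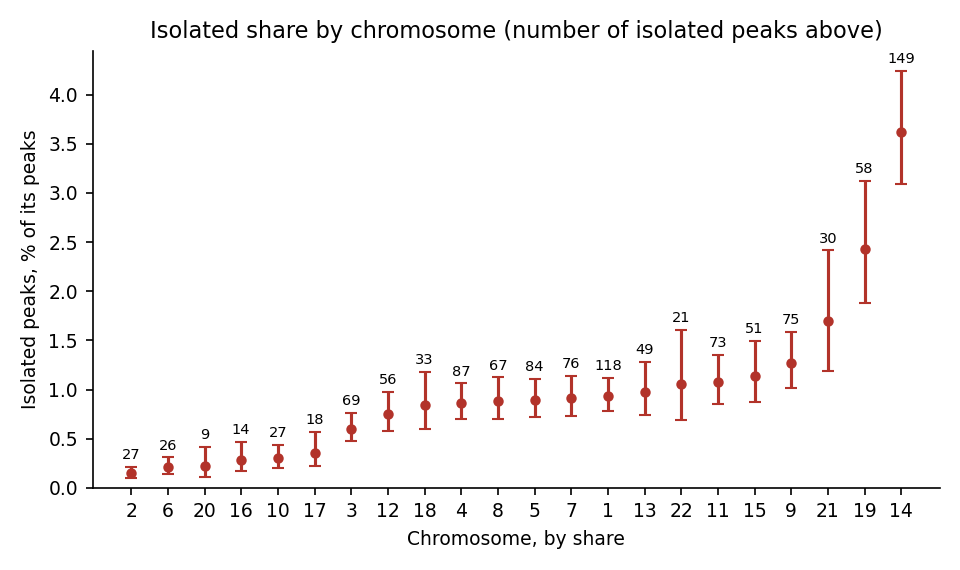
Isolated peaks as a percentage of the peaks of each autosome, in rising order, with 95% Wilson intervals and the number of isolated peaks above each point. Chromosome 14, at 3.62%, is above all others, and chromosomes 2, 6, 20, 16, 10 and 17 are at or below 0.358%.

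Within chromosome 14 the members lay almost entirely in the distal part, past 44 Mb, where an earlier description of this list found fewer peaks. There 145 of 1819 peaks were isolated, 7.97%, against 4 of 2294 before it, 0.174%. Whether copy number differs between these parts was not measured here. Members of the distal part had a median width of 240 bp (221 to 258), and 35.2% (27.9 to 43.2%) of them were under 200 bp. The other peaks of the same part had a median of 294 bp (285 to 302) and a share under 200 bp of 21.4% (19.5 to 23.5%). Without chromosome 14, the 1068 remaining members had a median width of 294 bp (284 to 303), against 317 bp (316 to 318) for the other peaks. Their share of 420 bp or wider was 7.49% (6.06 to 9.23%), against 18.1%. The lower widths of isolated peaks were therefore also present without this chromosome.

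The densest groups of isolated peaks were mostly on chromosome 14. The 1217 members fell in 820 of the 2733 autosomal windows of 1 Mb that held a peak, and 545 of these held a single member. Of the 24 windows with 4 or more members, 13 were on chromosome 14. The fullest, from 83000001 to 84000000 of chromosome 14, held 7 members among 16 peaks, with widths from 154 to 354 bp. Chromosome 14 from 92000001 to 93000000 held 6 among 18 peaks, and chromosome 21 from 47000001 to 48000000 held 6 among 32. Chromosome 14 from 56000001 to 57000000 held 5 members among 20 peaks, all of 257 bp or less, and from 59000001 to 60000000 it held 5 among 28.

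By chromosome, the median width of the isolated peaks was lower than that of the other peaks on 19 of 22 autosomes, equal on 2 and higher on 1. Among the 19, it was nearly equal on chromosomes 5 (305.5 against 306 bp), 6 (321 against 323 bp), 13 (309 against 310 bp) and 21 (315 against 316 bp). The interval of the members' median lay wholly below the other peaks' median on 6 autosomes and wholly above it on 0. Chromosome 14 had the lowest median, 240 bp (222 to 258) against 311.5 bp. Chromosome 10 followed in the size of the difference among these 6, with 269 bp (218 to 298) against 323 bp. On chromosome 2 the 27 members had a higher median, 338 bp (266 to 418) against 322 bp, but the interval includes the latter. It was also the exception in the share of 420 bp or wider, which was lower in members on 21 of 22 autosomes.

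**Figure D5:**
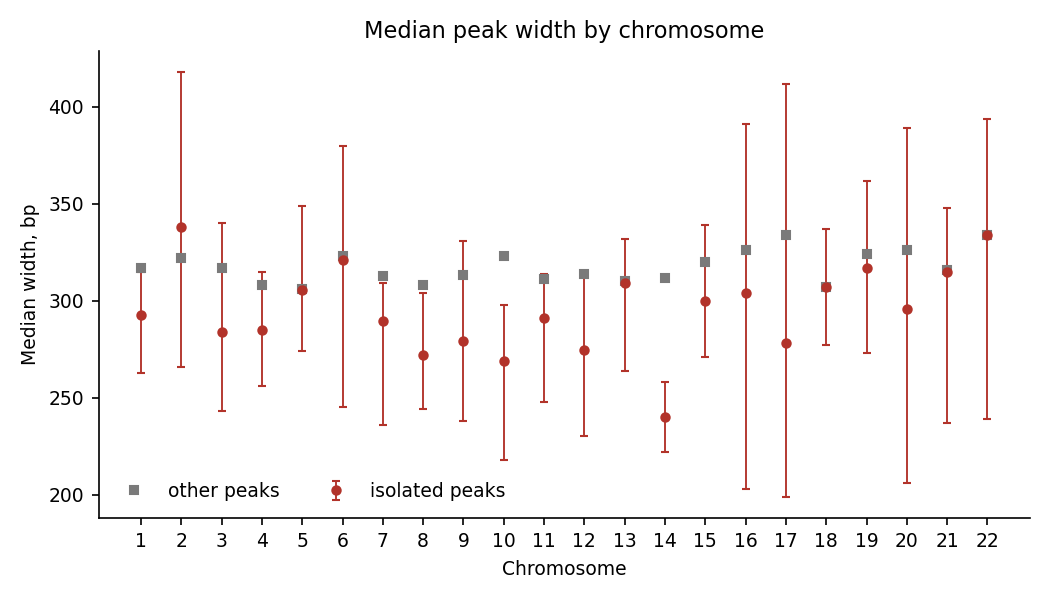
Median width, in bp, of isolated peaks (red, with exact 95% binomial intervals) and of the other peaks (grey squares) on each autosome; the axis does not start at 0. Members are lower on 19 of 22 autosomes, and chromosome 14, at 240 bp, is the lowest. The members' interval lies wholly below the other peaks' median on 6 autosomes.

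Isolated peaks were more frequent near the first and last peaks of chromosomes, which need not lie at the chromosome ends. Within 5 Mb of the first or last peak of a chromosome lay 168 members, 13.8% (12.0 to 15.9%), against 6.56% (6.44 to 6.69%) of the other peaks. Without chromosome 14 these shares were 14.2% and 6.47%. Chromosome 9 had 18 such members, chromosomes 8 and 14 had 16 each and chromosome 11 had 12, while chromosome 2 had 0. These members had a median width of 292.5 bp (272 to 310), and the interval includes the median of all members.

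Long peak-free gaps, such as those at centromeres, gave only a small part of the isolated peaks. Just 7 members had a gap over 1 Mb on a side, the longest being 21.1 Mb, next to a peak on chromosome 1 from 121403799 to 121404061. Within 3 Mb of such a gap lay 73 members, 5.998% (4.80 to 7.48%), against 3.59% (3.50 to 3.68%) of the other peaks, and 17 of the 73 were on chromosome 9. A peak at the edge of such a gap already meets the rule on that side, so the rule itself favours this place. The 1144 members away from these gaps had a median width of 288 bp (279 to 298), against 263 bp (236 to 313) for the 73.

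The deposited list wrote some peaks on several rows with the same start and end, and the reason is not given in the sources used here. Isolated peaks were written on slightly fewer rows than the others. The 1217 members took 1339 rows, 1.10 per peak, against 1.13 per peak for the others. On 1 row stood 1113 members, on 2 rows 87, on 3 rows 16 and on 4 rows 1. No member was on 5 rows or more, while the other peaks reached 20. In all, 8.55% of the members (7.10 to 10.2%) were on more than 1 row, against 10.8% (10.7 to 11.0%) of the other peaks. For 3 or more rows the shares were 1.40% (0.874 to 2.23%) and 1.38%, which overlap. Peaks with exactly 1 gap over 50 kb were on more than 1 row in 9.14% of cases (8.73 to 9.57%). For the peaks next to a member that were not members it was 7.98% (6.87 to 9.25%). Both intervals overlap that of the members, so the lower share was not particular to isolated peaks.

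The rows also varied with the chromosome. Weighted to the members' chromosomes, 11.9% of the other peaks were on more than 1 row, and weighted to their windows 10.8%, against 8.61% of the members in those windows. The members' share was lower than that of the other peaks on 17 of 22 autosomes and higher on 5. On chromosome 19, where 25.5% of the other peaks were on more than 1 row, 9 of 58 members were, 15.5% (8.38 to 26.9%). On chromosome 17 it was 5 of 18, 27.8% (12.5 to 50.9%), against 17.7%. Both of these intervals include the other peaks' share, and so did the members' interval on each of the remaining autosomes. In the classes of distance to the nearest peak, the share fell from 12.2% (11.9 to 12.6%) within 1 kb to 8.24% (7.50 to 9.05%) at 30 to 50 kb, and it was 9.01% (7.36 to 11.0%) at 50 to 75 kb. The intervals on either side of the limit overlapped.

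Among peaks on more than 1 row, a neighbour was also repeated less often when the peak was isolated. The rule puts both neighbours of a member over 50 kb away, so the sets are compared at unlike distances. Whether the contrast goes beyond this distance was not tested. Of the 104 members on more than 1 row, 37 had a previous or next peak that was also repeated, 35.6% (27.0 to 45.1%). Among the 16888 other peaks on more than 1 row this share was 77.3% (76.7 to 78.0%). For peaks on 1 row it was 12.9% (11.1 to 15.0%) in members and 10.0% (9.86 to 10.2%) in the others. Members on more than 1 row still had a repeated neighbour more often than those on 1 row, across gaps over 50 kb. Their median width was 285.5 bp (251 to 326), against 287 bp (278 to 298) for members on 1 row. Members near long peak-free gaps were on more than 1 row in 12 of 73 cases, 16.4% (9.66 to 26.6%), and the others in 8.04% (6.60 to 9.76%).

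The member on 4 rows was 290 bp wide, on chromosome 15 from 43939807 to 43940096, with gaps of 98042 and 111620 bp. The first 4 of the 16 on 3 rows, in genome order, were on chromosome 1 from 144875508 to 144875758 (251 bp), chromosome 2 at 47568386 to 47569074 (689 bp) and, farther along, at 71175965 to 71176557 (593 bp), and chromosome 3 from 52870492 to 52870829 (338 bp). Both of those on chromosome 2 were wider than 420 bp and stood in windows of 66 and 85 peaks. In windows of 61 or more peaks, 15.7% (10.1 to 23.4%) of the 115 members were on more than 1 row, against 7.84% (5.64 to 10.8%) in windows of 41 to 60, 7.57% (5.67 to 10.0%) in windows of 21 to 40 and 8.85% (4.88 to 15.5%) in windows of 1 to 20. The first interval overlapped all of these but that of 21 to 40 peaks.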

How the data were processed

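The only file analysed was a peak list with 3 columns, chromosome, start and end, so it holds no height, fold or p-value per peak. Per the file header, the authors trimmed the reads, removed duplicates and called peaks with MACS. Its p-value cutoff was 1e-05 and its enrichment factor 32, reads and fragments were set to 128 bp, the genome to 2700000000 bp, and local biases were detected. BWA and hg19 are named in the submitters' processing notes. No tool version is given in the sources used here. A stricter cutoff or a less deep library can leave fewer neighbours and thus more isolated peaks, and duplicate removal limits how reads stack.

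The 180505 deposited rows were reduced to distinct positions, and no peak overlapped another. A gap is the number of bases between the end of a peak and the start of the next. First and last peaks of chromosomes, 44 in all, were left out, as were X and Y. Windows of 1 Mb were filled by midpoints. In weighted shares, each chromosome or window of the other peaks counts by its number of members. Named regions are the 5 members with the largest smaller gap, the 5 widest, the 5 on the most rows, those 3 on each side of the limit, the 5 fullest windows and the 3 longest runs. Members, limits and rules were chosen with earlier results of these data known. Steps were checked on simulated peaks. Python 3.11.15, pandas 2.3.3 and scipy 1.17.1 were used. Alternatives for the gap limit, merging, distance, width and long gaps are given in the closing section. No genome or gene annotation of hg19 was used, so sequence and genes were not analysed here.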

Additional observations from a re-analysis of the deposited data

How the results depend on the processing

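By construction the gap limit sets the number of isolated peaks: it was 14889 at 20 kb and 103 at 100 kb. Keeping only peaks of 200 bp or wider gave 2039. Whether this width filter acts like a stricter call was not tested, since the list holds no p-value per peak. Merging peaks within 1 kb (1280), distances between midpoints (1255), keeping first and last peaks (1222), adding X and Y (1671) and leaving out members beside gaps over 1 Mb (1210) stayed within 1.5-fold. Median width was 302 bp at 20 kb, 252 bp at 100 kb and 324 bp for peaks of 200 bp or wider, where it was 318, 316 and 343 bp in the other peaks. The share of 420 bp or wider was 11.6% at 20 kb, 5.83% at 100 kb, 11.7% after merging and 10.2% for peaks of 200 bp or wider, against 18.7%, 18.0%, 24.9% and 21.9% in the other peaks. The highest chromosomal share was 16.6% at 20 kb, on chromosome 19 and no longer on 14; it was 0.705% at 100 kb and 4.60% for peaks of 200 bp or wider, both on chromosome 14. Without chromosome 14, an alternative chosen after seeing the data, it was 2.43%, on chromosome 19. The share on more than 1 row lay within its interval under each alternative run for it. In none of the alternatives run for widths and rows did the members come out above the other peaks. Unknown depth limits every count, since a gap between peaks can hold regions that did not rise, that fell or that had too few reads. No library could be left out, since each group holds just 1. No paired analysis was possible because there is a single library in every group.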

Other observations

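Chromosomes X and Y, which the rule leaves out, held isolated peaks more often than any autosome. By the same gaps, 405 of 3228 peaks of X (12.5%) and 49 of 219 of Y (22.4%) were isolated, against 3.62% on chromosome 14. The median widths of these isolated peaks were 266 bp on X and 279 bp on Y, against 287 bp for the autosomal members. Widths of the other peaks of X and Y were not analysed here, so this contrast cannot be tied to isolation. The copy number of either chromosome was not measured here, and it cannot be told apart from a difference in H3K4me1 with a single peak list.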
